A study of Mus musculus with 10 samples.

Results

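The genes described here are 10 genes of extracellular matrix turnover that are commonly discussed for Bruch's membrane, chosen by symbol: the inhibitors Timp1, Timp2 and Timp3, the metalloproteinases Mmp2, Mmp3, Mmp9 and Mmp14, the serine protease gene Htra1, and the matrix genes Efemp1 and Eln. All 10 were found among the 55487 distinct genes of the count table. RNA was measured by sequencing in the RPE/choroid complex of mouse eyes, which is the retinal pigment epithelium (RPE) with the vascular and connective tissue behind it. The 5 ADQ samples came from iDTR mice that also carried adiponectin-Cre and received intraperitoneal diphtheria toxin, daily for 7 weeks per the series description. The 5 control samples came from iDTR mice without Cre that received the toxin as well; the sources used here give neither its duration in controls nor the age of either group. In iDTR mice, which are on a C57BL/6 background, the Rosa26 locus holds the receptor for the toxin (HBEGF), and Cre is needed to switch it on. Cre was under the adiponectin promoter, which is active in fat cells, and the series title gives the aim as adipocyte ablation. Since no label states whether samples came from different animals, the p-values refer to sample-to-sample spread, some of which may be technical.

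Bruch's membrane is a thin sheet of elastin and collagen between the RPE and the choroidal capillaries, and it is renewed by a balance of proteases and their inhibitors. Metalloproteinases use a zinc ion to cut matrix proteins, and TIMPs (tissue inhibitors of metalloproteinases) bind and block that zinc site. TIMP3 stays bound to the matrix, and in humans its mutations cause Sorsby fundus dystrophy. A mutation of human EFEMP1 causes a dominant form of drusen, and the human HTRA1 locus is associated with age-related macular degeneration.

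The shared chemistry of the 4 proteases is visible in their coding DNA. In each of the 4 member metalloproteinase genes the zinc-binding site, searched in frame on the coding strand, was found in 33 bases (GENCODE M21, GRCm38). It was found in 63 of 21630 coding genes scanned (0.291%), 1 transcript per gene. Capitals mark the codons of the 3 zinc-binding histidines and of the catalytic glutamate, which is the part that TIMPs cover; positions are counted from 1 at the A of the start codon.
Mmp2, coding bases 1207 to 1239: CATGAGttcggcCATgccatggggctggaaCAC
Mmp3, coding bases 658 to 690: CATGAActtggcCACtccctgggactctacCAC
Mmp9, coding bases 1201 to 1233: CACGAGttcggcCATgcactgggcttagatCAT
Mmp14, coding bases 715 to 747: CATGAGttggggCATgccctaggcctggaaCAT
Over these 33 bases Mmp2 shared 23 with Mmp3, Mmp14 shared 21 and Mmp9 shared 20.

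The length-scaled levels set the order of the members. They are given as RPKM, CPM divided by the kilobases of annotated exon, a scale on which genes can be compared roughly. Exons of all annotated transcripts were merged, so the order depends on that length (3896 bases for Timp2, 8144 for Timp3). Mmp3, encoding stromelysin-1, a broad matrix protease that also activates other metalloproteinases, was the highest of the 10, with 592 ± 197 RPKM in ADQ and 631 ± 158 RPKM in control (SD, n = 5 each). Timp2 followed with 272 ± 30.9 RPKM in ADQ and 236 ± 25.1 RPKM in control, and Timp3 with 161 ± 50.4 RPKM in ADQ and 116 ± 41.9 RPKM in control. On this scale Mmp3 was above Timp2, and Timp2 above Timp3, in all 10 libraries, with no overlap of their ranges in either group. In CPM, which is not scaled by length, the mean of Timp3 was above that of Timp2 (1311 against 1058 in ADQ, 941 against 918 in control).

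The middle of the order was crowded. Mmp2, below Timp3 in all 10 libraries though their ranges overlapped, averaged 65.2 ± 21.4 RPKM in ADQ and 62.9 ± 10.8 RPKM in control. Below it, Timp1, Htra1, Efemp1 and Mmp14 lay between 29.5 and 44.7 RPKM on average in control, and their ranges overlapped in control. In ADQ the neighbours Htra1 and Efemp1, and Efemp1 and Mmp14, overlapped as well, while Timp1 lay below Htra1 without overlap. Timp1 was the highest of these 4 in control and the lowest in ADQ, with 27.3 ± 4.90 RPKM in ADQ against 44.7 ± 13.4 RPKM in control. Eln (elastin) had 7.70 ± 1.75 RPKM in ADQ and 6.24 ± 1.42 RPKM in control, below Mmp14 in all 10 libraries. Mmp9, encoding gelatinase B, which leukocytes carry, was last with 1.02 ± 0.355 RPKM in ADQ and 1.24 ± 0.587 RPKM in control.

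**Figure D1:**
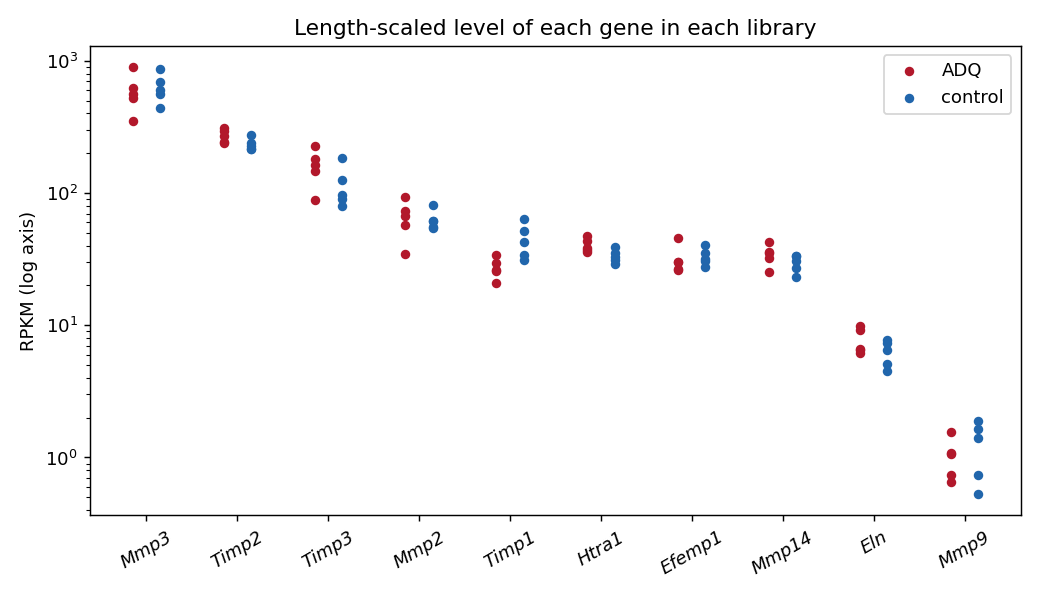
Level of each gene in RPKM (log axis), 1 point per library, 5 ADQ libraries left and 5 control libraries right of each gene name, in the order of the control means. Mmp3, Timp2 and Timp3 stand above the rest and Mmp9 is lowest, near 1 RPKM, while Timp1, Htra1, Efemp1 and Mmp14 overlap in control.

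The comparison asks how these genes differed in the RPE/choroid after the toxin had been given to mice with adiponectin-Cre. No member passed over all 20684 genes tested (edgeR quasi-likelihood test, Benjamini-Hochberg adjusted p under 0.05), against 0.827% of all genes tested. All 10 members passed the low-count filter, with 90 to 96996 counts per library. By unadjusted p under 0.05, 2 members did (Timp1, lower in ADQ, and Htra1, higher), against 13.8% of all genes (7.96% higher and 5.85% lower). DESeq2 called 1 member, Timp1, lower in ADQ (against 3.26% of genes called, 1.13% lower), and limma's voom with quality weights called 0 (against 3.52% of genes, 0.851% of genes lower). In no member were the ADQ and control CPM ranges free of overlap, against 3.16% of all genes (2.09% higher and 1.07% lower in ADQ). Fold changes are ADQ over control: 6 members were above 0 on the log2 scale, where 51.8% of all genes were, and 4 below, with a median of 0.13 against 0.012 for all genes.

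**Figure D2:**
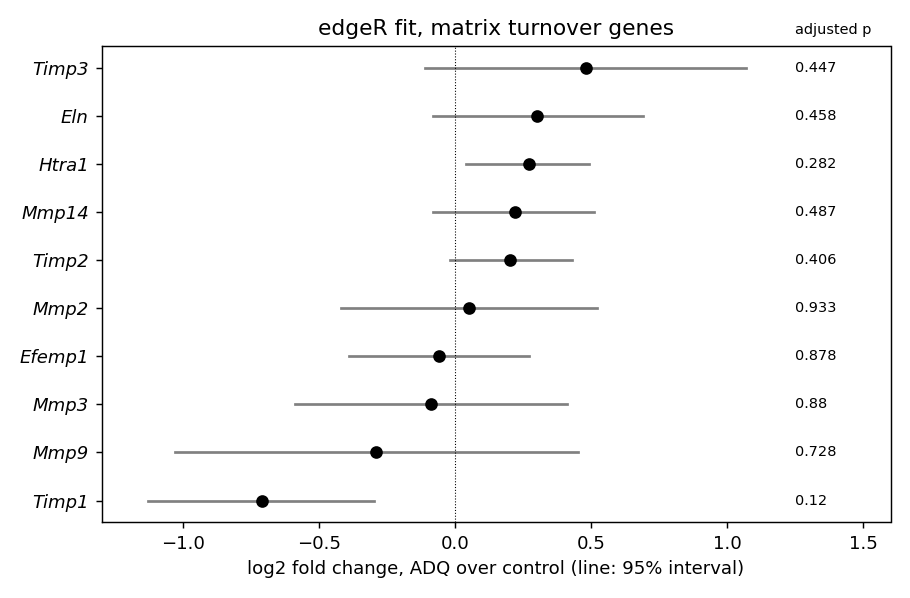
Log2 fold change of ADQ over control for each gene (point) with its 95% interval from the edgeR fit (line) and its adjusted p at the right. The intervals of Timp1 (below 0) and Htra1 (above 0) leave out 0, and no adjusted p is under 0.05, the lowest being 0.12 for Timp1.

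Timp1, an inducible and freely secreted inhibitor, was the member with the smallest p. It had 30.4, 26.1, 23.2, 23.0 and 18.6 CPM (counts scaled to the TMM-adjusted library total) in ADQ 1 to 5, against 37.9, 56.9, 45.7, 27.8 and 30.4 CPM in control 1 to 5. Controls 2 and 3 were the highest, all ADQ libraries lay below the control median, and the ranges overlapped because ADQ 1 was above control 4. The mean was 24.2 ± 4.35 CPM in ADQ and 39.7 ± 11.9 CPM in control (SD, n = 5), a 1.64-fold lower fitted level (log2 fold change -0.71, SE 0.19, edgeR adjusted p = 0.12). Its 95% interval ran from 0.458- to 0.813-fold, and its p ranked 457 among all genes tested.

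The call for Timp1 depended on the test. DESeq2 gave a log2 fold change of -0.72 with adjusted p = 0.00988, voom with quality weights -0.73 with adjusted p = 0.0829, and the authors' deposited table lists a log2 fold change of -0.75 with adjusted p = 0.0491, where 5.42% of its genes are under 0.05 (1.63% lower in ADQ). With any single library left out it stayed below 0 in the edgeR fit, with adjusted p from 0.0704 (without control 5) to 0.28 (without ADQ 3).

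Marker sums of fat and of surface epithelium had lower means in ADQ; neither passed after adjustment over the 14 marker lists compared. The summed CPM of 8 adipocyte markers was 7.36 to 25.2 in ADQ and 6.44 to 155 in control (exact two-sided permutation p = 0.0476, adjusted 0.222); control 2, the highest in Timp1, was also the highest here, and control 5 the lowest. Adipoq itself had 0.176 to 1.67 CPM in ADQ, against 4.06 to 7.93 CPM in controls 1 to 4 and 0 in control 5. The summed CPM of 7 corneal and conjunctival epithelium markers was 78.8 to 94.5 in ADQ and 104 to 1258 in control (exact two-sided permutation p = 0.00794, the smallest that 5 against 5 libraries allow, adjusted 0.111), lowest of the controls in control 2. Aldh3a1 alone had 77.9 to 93.0 CPM in ADQ and 102 CPM in control 2. Of the other markers in that list none was above 0.822 CPM in ADQ or control 2, while Krt4 reached 395 CPM in control 3. The part of either tissue in the Timp1 difference was not tested. In bulk tissue, fewer cells of a type and less RNA per cell cannot be told apart.

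The promoter of Timp1 and that of Mmp3 are shown as those of the member with the smallest p and of the most abundant one. Each is the run of 250 bases before the RefSeq start (GRCm38.p6, plus strand). Capitals mark matches on either strand to the AP-1 motif TGANTCA, to the TATA motif, spelled TATAAA, and to the GC box, whose letters are GGGCGG; no 2 of them overlap here.
Timp1, chrX:20869916-20870165: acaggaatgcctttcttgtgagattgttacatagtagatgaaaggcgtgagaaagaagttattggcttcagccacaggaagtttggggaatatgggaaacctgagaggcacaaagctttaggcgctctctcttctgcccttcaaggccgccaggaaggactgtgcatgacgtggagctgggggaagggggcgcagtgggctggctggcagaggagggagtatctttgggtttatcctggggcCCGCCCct
Mmp3, chr9:7445572-7445821: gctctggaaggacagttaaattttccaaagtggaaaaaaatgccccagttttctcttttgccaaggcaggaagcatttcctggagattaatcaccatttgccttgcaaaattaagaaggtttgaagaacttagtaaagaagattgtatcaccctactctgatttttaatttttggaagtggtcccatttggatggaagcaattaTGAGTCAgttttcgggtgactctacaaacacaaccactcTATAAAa
The Mmp3 window held 1 AP-1 and 1 TATA match, and the Timp1 window held 1 GC box and neither of those. Of 32851 RefSeq windows of this length, 6.75% held the AP-1 letters, 12.4% the TATA letters and 32.7% the GC box letters. The CCAAT motif, left in lower case, was matched 1 time in the Timp1 window and is in 33.8% of windows. The reference table gave windows for 7 of the 10 members, and of these Efemp1 also held an AP-1 match (TGAATCA, 154 bases before the start). A match of letters is a description and not a bound site.

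Within each group Timp3 was the most variable of the 3 TIMPs, with an SD of 31.3% of the mean in ADQ and 36.3% in control, and the groups overlapped. It had 724, 1193, 1850, 1323 and 1467 CPM in ADQ 1 to 5, against 736, 1027, 1499, 788 and 655 CPM in control 1 to 5. ADQ 3 was above every control, while ADQ 1 lay among the lowest 3 libraries of all. The mean was 1311 ± 410 CPM in ADQ and 941 ± 341 CPM in control (SD, n = 5), with a fold change of 0.48 on the log2 scale (SE 0.27; edgeR adjusted p = 0.447). The 95% interval was 0.925- to 2.10-fold. Its log2 fold change was 0.71 without control 3 and 0.32 without ADQ 3.

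Libraries high in Timp3 were low in the summed CPM of RPE markers, and this was not particular to the RPE list. The sum of 7 Mueller glia markers was also lowest in ADQ 3 (10690). It was highest in ADQ 1 (19580), control 1 (19160) and control 5 (18850), where Timp3 was lowest. The summed CPM of 8 RPE markers was lowest in ADQ 3 (28550), where Timp3 was highest, and highest in control 1 (48960), where Timp3 was the third lowest. On average that sum was 35650 ± 5472 in ADQ and 42070 ± 5683 in control (SD, n = 5; exact two-sided permutation p = 0.111, adjusted 0.358). Rgr and Ttr made up 68.9% to 72.6% of the RPE sum in every library, and Lrat, another RPE gene, did not follow it, being highest in ADQ 5 at 1136 CPM. Best1 did not follow it either, with 4.90 CPM in ADQ 3 and 4.31 CPM in control 1. With the mean log2 CPM of these markers as a covariate, in which each gene weighs the same, the log2 fold change of Timp3 was 0.18 (adjusted p = 0.722). In that fit Eln (0.12), Mmp14 (0.13) and Timp2 (0.09) also moved toward 0 on the log2 scale. Timp1 (-0.758), Mmp3 (-0.29), Mmp9 (-0.685) and Efemp1 (-0.075) moved away from 0. Mmp2 turned to -0.154, and Htra1 was at 0.271. With stroma markers as the covariate Timp3 had 0.28, Eln 0.14, Mmp14 0.06 and Timp2 0.09. The same stroma fit gave Htra1 0.249, Efemp1 -0.042, Mmp2 -0.261, Mmp3 -0.391, Mmp9 -0.664 and Timp1 -0.802. The part of tissue make-up in these values was not tested.

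**Figure D3:**
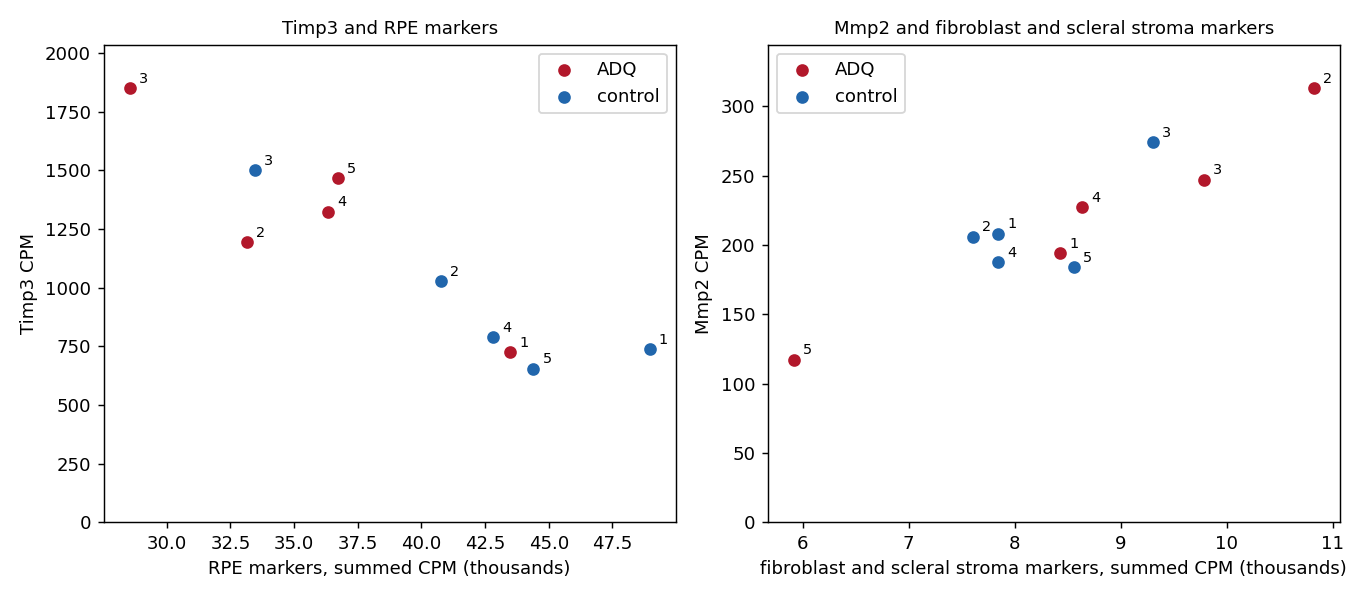
Left, Timp3 CPM against the summed CPM of 8 RPE markers; right, Mmp2 CPM against the summed CPM of 10 fibroblast and scleral stroma markers; 1 point per library with its number, ADQ red and control blue. Timp3 is highest in ADQ 3 and control 3, which are low in the RPE sum. Mmp2 is lowest in ADQ 5, the library lowest in the stroma sum, most of which is Dcn.

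The pattern of Timp3 over the 10 libraries was shared with more genes than that of any other member. Of 11135 protein-coding genes at 5 CPM or more, 535 (4.80%) had a Pearson r of at least 0.9 with Timp3 on log2 CPM. The 5 most alike were Ptprm (r = 0.99), Fto (0.99), Copa (0.99), Sel1l (0.99) and Casc3 (0.99). For Timp1 3 genes reached 0.9, and its 5 most alike were Dnajc3 (r = 0.94), Cxcl14 (0.91), Rufy1 (0.90), Bpifb1 (0.89) and Sucla2 (0.89). For Timp2 164 genes reached 0.9 (1.47%), and for each of the remaining members 2 to 12 did. The share for genes outside the members was not counted. The TMM factor of the libraries was highest in ADQ 3 (1.13), where Timp3 was highest, and lowest in control 1 (0.910). The part of that factor in the Timp3 pattern was not tested. These r values describe the same 10 libraries, which differ in depth and tissue make-up, and carry no test.

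Timp2, the inhibitor that with MMP14 also helps to activate pro-MMP2, had 934, 1149, 1206, 1053 and 947 CPM in ADQ 1 to 5, against 889, 938, 1078, 844 and 840 CPM in control 1 to 5. ADQ 2 and 3 exceeded every control, and every ADQ library exceeded the control median. The mean was 1058 ± 120 CPM in ADQ and 918 ± 97.7 CPM in control (SD, n = 5), with a fold change of 0.20 on the log2 scale (SE 0.11; edgeR adjusted p = 0.406), and the 95% interval was 0.983- to 1.35-fold. Timp2 and Timp3 varied together, with r = 0.83 over the 10 libraries and 0.78 after each group's mean was taken out.

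Per length, Timp3 stood at 2.60 to 8.70 times the level of Timp1 in the ADQ libraries and at 1.97 to 3.57 times in control libraries. The ratio was above every control in 4 ADQ libraries, and in ADQ 1 it lay within the control range. The pair was chosen after the values had been seen, so the ratio is a description.

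Of the 4 member metalloproteinases none passed the edgeR test. Mmp3 had 939, 1610, 1129, 1020 and 636 CPM in ADQ 1 to 5, against 1088, 1239, 1555, 791 and 1008 CPM in control 1 to 5. Both the highest and the lowest library were ADQ. The log2 fold change was -0.09 (SE 0.23, edgeR adjusted p = 0.88), with a 95% interval of 0.665- to 1.33-fold.

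Mmp2, gelatinase A, followed Mmp3 across libraries (r = 0.92, and 0.93 within groups). It had 194, 313, 247, 227 and 117 CPM in ADQ 1 to 5, against 208, 206, 274, 188 and 184 CPM in control 1 to 5. ADQ 5 was the lowest of all libraries, as it was in Mmp3. It was also the lowest in the summed CPM of 10 fibroblast and scleral stroma markers, at 5917 against 7608 to 10820 in the other 9. Dcn made up most of that sum, with 4158 CPM in ADQ 5. Of the 10 markers only Dcn and Col1a2 were lowest in ADQ 5. Lum (231 CPM in ADQ 5, 196 in control 5) and Pdgfra (37.6 and 32.0) were among those that were not. The log2 fold change of Mmp2 was 0.05 (SE 0.22, edgeR adjusted p = 0.933), and it was -0.26 with stroma marker level as a covariate (adjusted p = 0.525). Without ADQ 5 it was 0.21 (adjusted p = 0.542).

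Mmp14, which encodes the membrane-anchored protease that activates pro-MMP2, had 210, 254, 213, 193 and 151 CPM in ADQ 1 to 5, against 182, 199, 199, 161 and 138 CPM in control 1 to 5. ADQ 1, 2 and 3 were above every control, but ADQ 5 was below 4 of them. The mean was 204 ± 37.3 CPM in ADQ and 176 ± 26.2 CPM in control (SD, n = 5), with a fold change of 0.22 on the log2 scale (SE 0.14; edgeR adjusted p = 0.487). Without ADQ 5 the log2 fold change was 0.31 (adjusted p = 0.298), and without ADQ 2 it was 0.12.

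Mmp9 was the lowest of the 10, with 121 to 289 counts per library in ADQ and 90 to 344 in control. That made 2.62, 3.76, 5.51, 3.80 and 2.32 CPM in ADQ 1 to 5, against 2.61, 4.95, 6.71, 5.82 and 1.87 CPM in control 1 to 5. The highest and the lowest library were both controls. Its log2 fold change was -0.29 (SE 0.34, edgeR adjusted p = 0.728). Without ADQ 3 it was -0.49 and without control 3 it was -0.08. It was -0.69 with RPE markers as a covariate (adjusted p = 0.248), -0.66 with stroma markers (adjusted p = 0.361) and -0.04 with rod markers (adjusted p = 0.976). Neutrophil markers, summed over 10 genes, were at 25.8 to 35.3 CPM in ADQ and 24.5 to 32.0 CPM in control. Over all libraries Camp had 7.17 to 14.5 CPM, Csf3r 5.77 to 11.9, S100a8 2.84 to 8.76 and S100a9 2.29 to 6.03. Ly6g, Mpo and Elane were at no more than 0.13 CPM in any library.

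Htra1, which encodes a secreted serine protease that cleaves matrix proteins, had the second smallest p. It had 125, 135, 110, 106 and 102 CPM in ADQ 1 to 5, against 94.7, 84.0, 101, 89.7 and 112 CPM in control 1 to 5. Every ADQ library was above the control median and above controls 1 to 4, and control 5 lay above ADQ 3, 4 and 5. The mean was 116 ± 13.9 CPM in ADQ and 96.4 ± 10.97 CPM in control (SD, n = 5), with a fold change of 0.27 on the log2 scale (SE 0.10; edgeR adjusted p = 0.282). The 95% interval was 1.03- to 1.40-fold, and the authors' deposited table lists a log2 fold change of 0.32 with adjusted p = 0.071. Without control 5 the log2 fold change was 0.33 (adjusted p = 0.183).

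The genes most like Htra1 over the 10 libraries were Ly6e (r = 0.95), Ncoa7 (0.94), Ccr2 (0.93), Sh3bp2 (0.93) and Trim12a (0.92). Ccr2 encodes a chemokine receptor of monocytes. Control 5, the highest control in Htra1, was also the highest control in the summed CPM of 8 T and NK cell markers (77.5, with 71.7 to 104 in ADQ and 23.8 to 35.6 in controls 1 to 4). The exact two-sided permutation p for that sum was 0.0238 (adjusted 0.167). The sum of 8 macrophage markers was 1394 to 2174 CPM in ADQ and 1339 to 1714 CPM in control (exact two-sided permutation p = 0.151, adjusted 0.358), with control 5 again the highest control. The single markers differed in this: Aif1, C1qa and C1qb were highest of the controls in control 5. Csf1r was lowest there, at 275.6 CPM against 298.2 to 324.4 CPM in controls 1 to 4. Adgre1 in control 5 was below controls 2 to 4. All 8 macrophage markers had log2 fold changes above 0, and 2 passed the edgeR test over all genes: Aif1 (log2 fold change 0.92, adjusted p = 0.00756) and Adgre1 (0.47, adjusted p = 0.0476). Their part in the Htra1 values was not tested.

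**Figure D4:**
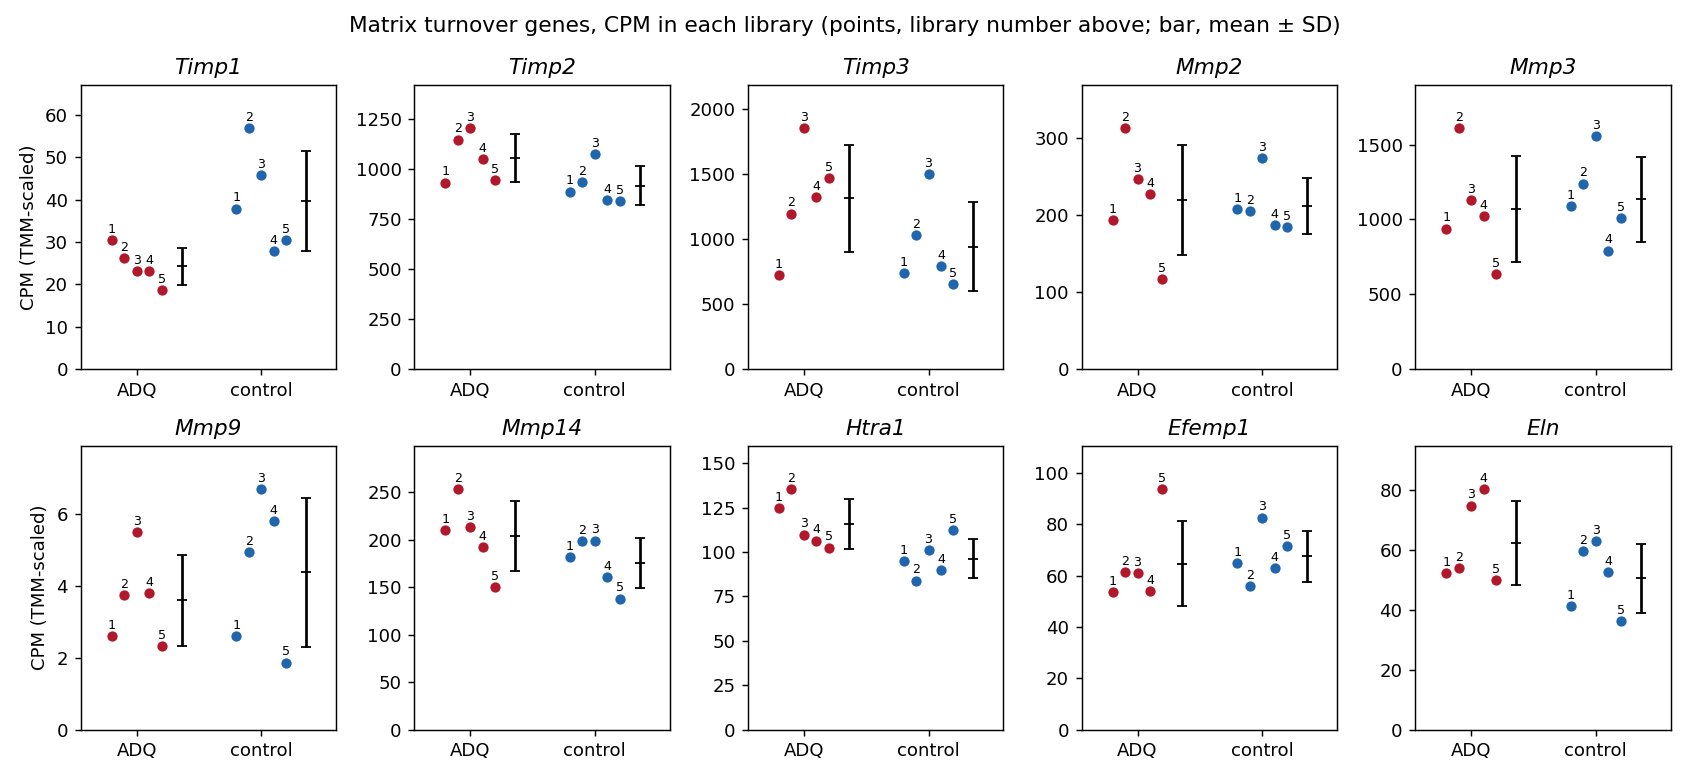
CPM of each gene in each library (points, with the library number above), ADQ left and control right, with mean ± SD (n = 5) as a black bar at the right of each group; the axes start at 0. In every gene the groups overlap; Timp1 is high in controls 2 and 3, and Efemp1 is high in ADQ 5.

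Efemp1, encoding fibulin-3, a matrix glycoprotein that binds TIMP3, had 53.7, 61.4, 60.9, 53.9 and 93.8 CPM in ADQ 1 to 5, against 65.0, 56.0, 82.6, 62.9 and 71.4 CPM in control 1 to 5. ADQ 5 was the highest of all libraries, and the other 4 ADQ libraries lay below the control median. The log2 fold change was -0.06 (SE 0.15, edgeR adjusted p = 0.878), and it was -0.23 without ADQ 5 (adjusted p = 0.374). ADQ 5 also had the highest summed CPM of 9 rod photoreceptor markers, at 3931 against 526 to 2728 in the other ADQ libraries. Other libraries did not follow that order. ADQ 4, with rod markers at 2728, had 53.9 CPM of Efemp1, and control 3, with rod markers at 612.5, had 82.6 CPM. The part of retina in the Efemp1 values was not tested. With rod marker level as a covariate the log2 fold change of Efemp1 was -0.17 (adjusted p = 0.698). The genes most like Efemp1 were Fam171a2 (r = 0.95), Cdc42ep4 (0.93), Ppme1 (0.90), Dhx38 (0.90) and Gtpbp1 (0.89).

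Eln, which encodes elastin, the core of the middle layer of Bruch's membrane, had 52.4, 54.0, 74.9, 80.5 and 50.1 CPM in ADQ 1 to 5, against 41.2, 59.6, 63.0, 52.6 and 36.3 CPM in control 1 to 5. ADQ 3 and 4 were above every control, and the other 3 ADQ libraries lay within the control range. The log2 fold change was 0.30 (SE 0.18, edgeR adjusted p = 0.458). Eln followed Timp3 across libraries (r = 0.76, and 0.69 within groups).

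Of 82 other genes listed for matrix turnover, 79 were tested, 0 were called higher and 1 lower, where 0.74% of all genes were called higher and 0.087% lower. The gene called lower was Col4a4, which encodes a type IV collagen chain of basement membranes. It was at 56.4 to 70.4 CPM in ADQ and 77.1 to 111 CPM in control, without overlap (log2 fold change -0.49, SE 0.11, edgeR adjusted p = 0.0489). Leaving out 1 library gave adjusted p from 0.0353 to 0.153, and the call was lost in 9 of those 10 fits. Its partner chain Col4a3 had 63.6 ± 10.3 CPM in ADQ and 79.4 ± 11.9 CPM in control (SD, n = 5; edgeR adjusted p = 0.302). Of the 19 basement membrane genes tested, 10 were above 0 and 9 below on the log2 scale, with a median of 0.03.

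The other metalloproteinases held no call. Of 15, 13 were tested, 10 above 0 and 3 below on the log2 scale, with a median of 0.20. Mmp13, a collagenase, was at 1.13 to 2.66 CPM in ADQ and 0.625 to 0.868 CPM in control, without overlap, with a log2 fold change of 1.06 (SE 0.28, edgeR adjusted p = 0.112); DESeq2 gave adjusted p = 0.018. Mmp11 followed with adjusted p = 0.393 and a log2 fold change of 0.29. Mmp25 and Mmp10 had log2 fold changes of 0.52 and 0.32, with adjusted p = 0.524 and 0.616.

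Inhibitors and regulators outside the TIMP trio numbered 9, all tested, with a median log2 fold change of 0.03. Serpine2, protease nexin-1, had 898 to 1112 CPM in ADQ and 504 to 955 CPM in control (log2 fold change 0.46, SE 0.14, edgeR adjusted p = 0.181; voom with quality weights adjusted p = 0.0335). Cst3 (cystatin C) and Bsg (basigin, an inducer of metalloproteinases) had log2 fold changes of -0.33 and -0.25, with adjusted p = 0.393 and 0.394.

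Among 15 ADAM, ADAMTS and HTRA proteases, all tested, the median log2 fold change was 0.18. Adam17, a sheddase, had 28.9 to 42.8 CPM in ADQ and 21.9 to 36.2 CPM in control (log2 fold change 0.43, edgeR adjusted p = 0.24; voom with quality weights adjusted p = 0.0455). Htra3, a relative of Htra1, had a log2 fold change of -0.36 (adjusted p = 0.351), opposite in sign to Htra1; that difference was not tested. Adam12 and Adam10 had log2 fold changes of 0.54 and 0.19 (adjusted p = 0.48 and 0.521). In the plasminogen system, 3 of 4 genes were tested, and Plaur, the urokinase receptor, had 20.1 ± 3.06 CPM in ADQ and 16.0 ± 1.36 CPM in control (SD, n = 5; edgeR adjusted p = 0.24). Plat and Plau had log2 fold changes of 0.42 and 0.37 (adjusted p = 0.406 and 0.752).

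Elastic fibre assembly genes, 20 tested, had 14 above 0 and 6 below on the log2 scale, with a median of 0.06. Lox, the enzyme that crosslinks elastin, had 19.0 to 42.8 CPM in ADQ and 12.7 to 31.0 CPM in control (log2 fold change 0.59, SE 0.27, edgeR adjusted p = 0.375). Ltbp2 and Ltbp1, binding proteins of the fibrillin family, had log2 fold changes of 0.53 and 0.37 (adjusted p = 0.299 and 0.648), and Efemp2, the close relative of Efemp1, of -0.17 (adjusted p = 0.406). Lama1 and Fn1, of the basement layer, had log2 fold changes of 0.88 and 0.52 (adjusted p = 0.163 and 0.523). Lama1 was at 0.898 to 1.34 CPM in ADQ and 0.395 to 0.755 CPM in control, without overlap. Fn1 had 0.27 without ADQ 3, 0.81 without control 3 and 0.08 with RPE markers as a covariate.

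The members lie at separate places in the genome, given here on GRCm38. Timp1 is on chromosome X (20870166 to 20874735), Timp2 on 11 (118301069 to 118355740), Timp3 on 10 (86300372 to 86349506), Htra1 on 7 (130936111 to 130985660) and Efemp1 on 11 (28853204 to 28926743). Mmp2 is on chromosome 8 (92827291 to 92853420), Mmp3 on 9 (7445822 to 7455975), Mmp9 on 2 (164940780 to 164955850), Mmp14 on 14 (54431612 to 54445364) and Eln on 5 (134702593 to 134747323). Timp1 and Timp3 each lie inside a synapsin gene on the opposite strand. Timp1 shares no exon base with Syn1, while Timp3 shares 1733 with Syn3, which had 1641 counts over all libraries against 575476 for Timp3. Eln shares 267 exon bases with the antisense gene Gm30003 (107 counts over all libraries), and Htra1 lies within the annotated span of Fgfr2 on the other strand with 0 shared exon bases; Fgfr2 had 60025 counts over all libraries against 53058 for Htra1. Timp2 overlaps Cep295nl on its own strand, with 0 shared exon bases (590 counts over all libraries). No source used here says whether the counting used strand. Reads from the exon bases that Timp3 shares with Syn3, and Eln with Gm30003, may thus not be told apart.

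Across the series, library totals were 43591245 to 64087660 counts in ADQ and 47997064 to 50974422 counts in control (exact two-sided permutation p = 0.921). The members took 0.289% to 0.556% of each library's counts. Markers of RPE, choroidal endothelium, pericytes, stroma and macrophages were all detected in both groups, as were those of the retina and of skeletal muscle.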

How the data were processed

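Per the labels' protocols, RNA was extracted with TRIzol and NucleoSpin columns, and SMARTer chemistry gave the cDNA. The submitters' processing notes name GRCm38, DRAGEN, bcl2fastq, limma and edgeR, with neither versions nor roles, and no source used here gives counting settings. The deposited table holds raw counts per Ensembl gene and library; 287 repeated rows of 55774 were dropped. For 15860 genes a second deposited table, the authors' own comparison, gives log2 CPM, log2 fold changes and p-values, whose log2 CPM equal log2(count + 0.5) up to 1 constant per library (spread at most 1e-08). Columns left unused numbered 0. Groups and replicate numbers come from the sample titles.

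Counts were tested with edgeR 4.0.16 (R 4.3.3; limma 3.58.1): filterByExpr (minimum count 10, minimum total 15), TMM, robust quasi-likelihood fit with group as single term, Benjamini-Hochberg over 20684 genes. An SE is the absolute log2 fold change divided by the root of F, and 95% intervals use the fit's degrees of freedom. CPM use TMM-scaled totals; log2 CPM used for r has a prior count of 2. RPKM use merged GENCODE M21 exons. Single values per library were compared by exact two-sided permutation (scipy 1.17.1) over all assignments, adjusted by Benjamini-Hochberg over 14 marker lists. Alternatives were RLE, upper quartile and no scaling, no filter or 1 CPM in 5 libraries, DESeq2 1.42.0, voom and leaving out each library. Further ones were a fit that was not robust, a replicate block and rod, RPE or stroma marker level as a covariate. Marker level as a covariate was the mean log2 CPM of the list, not the summed CPM. The smallest chi-square between 2 libraries, over genes with at least 500 counts, was 33.9 per degree of freedom, so none was a duplicate.

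The members and lists were chosen with earlier results of these data known. Named were all members, of each other list the called genes and up to 4 with the smallest p, and the 5 genes most alike (Pearson r; predicted genes left out) for Timp1, Timp3, Htra1 and Efemp1. 1 gene that this rule names is not reported here.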

Additional observations from a re-analysis of the deposited data

Results flagged for a closer look

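Of 50 groups of 5 libraries examined (members, marker sums and library totals), 5 held 1 library far from the other 4, where chance gives about 1 in 20. Mmp2 was high in control 3, at 274 CPM against 184 to 208 in the other controls. Efemp1 was high in ADQ 5, at 93.8 CPM, with 53.7 to 61.4 in ADQ 1 to 4. ADQ 5 was also low in skeletal muscle markers, with a summed 299.9 CPM against 1362 to 1637. Rod photoreceptor markers were high in control 1, at 2155 CPM against 578 to 669 in the other controls. T and NK cell markers were high in control 5, at 77.5 CPM against 23.8 to 35.6.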

How the results depend on the processing

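Of 220 refits of the 10 members, 208 kept both their direction and their side of the threshold. Timp1 gained a call in 2, DESeq2 (log2 fold change -0.72, adjusted p = 0.00988) and the replicate block (-0.68, adjusted p = 0.0323), so the count of members called was 1 under DESeq2 and 1 with the replicate block, and 0 under the other 20 alternatives. The sign turned in 10 refits of genes near 0: Mmp2 was -0.004 with the replicate block, -0.154 with RPE markers, -0.261 with stroma markers and -0.111 to 0.211 with 1 library left out (without ADQ 2 and ADQ 5); Mmp3 was 0.016 with voom, 0.085 with rod markers and -0.287 (without ADQ 2) to 0.048 (without ADQ 5, and without control 3); Efemp1 was 0.018 with library size alone and -0.234 (without ADQ 5) to 0.021 (without control 3). Mmp10 was -0.001 with stroma markers. The cause was not tested.

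Over all genes, 171 were called (153 higher, 18 lower). DESeq2 called 768, voom 728 and the replicate block 694, and leaving out 1 library gave 78 (without control 4) to 357 (without control 5), with 81 without ADQ 2, 87 without ADQ 4, 96 without control 1 and 99 without ADQ 3. No member was called in any of these 10 fits. Library size alone moved the median of all genes to 0.0969. Same-numbered libraries correlated in their deviations from -0.15 to 0.322, under 0.1 in 3 of 5 pairs, while ADQ 3 and control 3 matched each other best. No label says whether the numbers pair the samples, and these correlations cannot decide it, so the block is only an alternative. Of the other genes named, the replicate block also called Adam17 (adjusted p = 0.0217), Lox (0.0215), Plat (0.027), Cst3 (0.0308), Serpine2 (0.0328) and Bsg (0.0477), each in its reported direction. Col4a4 lost its call with library size alone (adjusted p = 0.158), a non-robust fit (0.0517), rod markers (0.0911) and stroma markers (0.0743).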
